A study of Homo sapiens with 12 samples.

Results

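The 40 genes described here are a part of the protein folding and degradation machinery of the endoplasmic reticulum (ER). They were taken from a list of gene names drawn up with earlier results of these data known. They comprised 5 stress sensors and transcription factors, 8 chaperones and partners of the BiP and GRP94 type, 4 genes of the glycoprotein folding cycle, 8 disulfide enzymes, 10 genes of ER-associated degradation, and 5 genes of protein translocation, export and other ER membrane functions. Each symbol matched 1 gene row in both deposited tables, out of 28704 genes listed in either table. Gene positions are given below on GRCh38 (GENCODE release 29). Gene-level RNA-seq counts came from 12 libraries of 2 human hepatoma lines, Hep-3B and Huh-7, as labelled. Per line, 3 libraries were from cells transfected with a negative-control siRNA and 3 from cells transfected with siRNA against ARD1 (siARD1). ARD1, now named NAA10, is the enzyme subunit of NatA, the complex that adds acetyl groups to the N termini of many proteins. The question put by the series was how ARD1 relates to glutathione synthesis and to escape from ferroptosis, an iron-dependent form of cell death. The siRNA sequence, dose and time after transfection were not given in the sources used here.

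Secretory and membrane proteins enter the ER unfolded, are folded by chaperones, receive sugars and disulfide bonds, and are sent to the proteasome if they fail to fold. When unfolded proteins build up, the sensors IRE1 (gene ERN1), PERK (EIF2AK3) and ATF6 start the unfolded protein response, in which ATF6 and spliced XBP1 switch on chaperone and degradation genes and PERK slows translation and raises ATF4. Hepatocytes secrete much of the protein of blood plasma and are known for a large ER.

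The levels of NAA10 followed the labels in both lines. In the libraries labelled Hep-3B, NAA10 was at 48.4, 58.7 and 58.7 CPM (the count scaled to the library's total and a normalization factor set within each line) in the controls and at 10.9, 15.6 and 14.4 after siARD1, a log2 fold change of -2.01 (SE 0.12). In Huh-7 it was at 165, 156 and 200.2 CPM in the controls and at 13.2, 9.86 and 9.99 after siARD1 (-3.98, SE 0.13). Total counts ran from 17327615 to 25960237 per library. Of the hepatocyte markers, ALB (serum albumin), which Hep-3B cells are known to make, was at only 4.0 to 6.2 CPM in the controls labelled Hep-3B, beside 12488 to 12771 in the Huh-7 controls. Of the 12 markers, 7 were lower and 0 higher after siARD1 in the libraries labelled Hep-3B (summed level 558 to 652 CPM in controls, 362 to 394 after siARD1), and 6 lower and 0 higher in Huh-7 (34300 to 35806 and 26602 to 30931). Of all tested genes, 15.3% were lower in the libraries labelled Hep-3B and 18.9% in Huh-7. Fibroblast markers summed to 162.6 to 174.0 CPM in the controls labelled Hep-3B and 137.4 to 172.7 after siARD1. In these controls LUM alone was at 134.5 to 145.4 CPM and DCN at 20.3 to 26.8, and the other listed genes were at 4.74 or less. In Huh-7 the fibroblast markers summed to 47.8 to 54.6 CPM in the controls and 34.96 to 38.0 after siARD1. The part of either list in the results below was not tested. The labels do not say whether the libraries came from separate cultures, so each p-value measures only the spread between these libraries, which may be technical.

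Some of the members carry, just upstream of their start, letters known as binding motifs of the unfolded protein response, and these are shown here so that the changes can be read beside them. The motif searches covered the 250 bases before each annotated start (RefSeq, build GRCh38.p14), on both strands, for the ER stress response element ERSE (CCAAT, any 9 bases, CCACG), for ERSE-II (ATTGG, any 1 base, CCACG) and for the unfolded protein response element UPRE (TGACGTGG). Among all 27305 genes with such a window, ERSE was found in 0.0916%, ERSE-II in 0.0659% and UPRE in 0.78%. Among the 35 members with a window, 8 held ERSE, 3 held ERSE-II and 2 held UPRE. ERSE was first described in promoters of ER chaperone genes such as HSPA5, so its presence there is not an independent observation. The sites are written below as the motif reads from its own 5′ end, with its fixed bases in capitals. Only exact matches of the fixed bases were counted, and near matches were not searched for. A match is a description of letters, not of binding.

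HSPA5 (ERSE, chr9:125241391-125241409, same strand as the gene): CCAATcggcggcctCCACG
HSP90B1 (ERSE, chr12:103930216-103930234, same strand): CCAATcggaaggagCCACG
HSP90B1 (ERSE, chr12:103930321-103930339, opposite strand): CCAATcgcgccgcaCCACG
CALR (ERSE, chr19:12938384-12938402, opposite strand): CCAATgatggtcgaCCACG
CANX (ERSE, chr5:179698778-179698796, same strand): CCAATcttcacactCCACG
XBP1 (ERSE, chr22:28800603-28800621, same strand): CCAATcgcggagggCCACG
PDIA6 (ERSE, chr2:10812853-10812871, same strand): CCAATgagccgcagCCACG
CRELD2 (ERSE, chr22:49918554-49918572, opposite strand): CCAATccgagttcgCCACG
ERO1B (ERSE, chr1:236282183-236282201, opposite strand): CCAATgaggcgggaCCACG
HERPUD1 (ERSE-II, chr16:56932025-56932035, same strand): ATTGGgCCACG
SDF2L1 (ERSE-II, chr22:21642114-21642124, opposite strand): ATTGGtCCACG
HYOU1 (ERSE-II, chr11:119057274-119057284, opposite strand): ATTGGaCCACG
DNAJC10 (UPRE, chr2:182716132-182716139, opposite strand): TGACGTGG

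HYOU1 held a second ERSE-II at chr11:119057380-119057390, which overlaps a UPRE at chr11:119057386-119057393. The whole window is printed for 3 genes, on the gene's strand and with matches in capitals: HSPA5, which holds 1 ERSE match, HYOU1, which holds 3 matches, and SEL1L, which was among the members that rose most in the libraries labelled Hep-3B and holds none.

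HSPA5 (chr9:125241344-125241593, minus strand): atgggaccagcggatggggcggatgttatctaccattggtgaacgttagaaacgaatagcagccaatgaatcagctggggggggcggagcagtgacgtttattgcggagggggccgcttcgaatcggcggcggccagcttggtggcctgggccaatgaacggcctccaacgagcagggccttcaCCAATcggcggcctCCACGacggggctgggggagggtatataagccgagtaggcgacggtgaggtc
HYOU1 (chr11:119057206-119057455, minus strand): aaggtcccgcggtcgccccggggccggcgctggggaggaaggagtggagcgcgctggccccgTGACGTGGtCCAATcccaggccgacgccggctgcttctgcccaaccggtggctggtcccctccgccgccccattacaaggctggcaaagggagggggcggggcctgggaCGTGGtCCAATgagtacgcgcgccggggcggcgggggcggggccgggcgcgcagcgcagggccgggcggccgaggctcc
SEL1L (chr14:81533854-81534103, minus strand): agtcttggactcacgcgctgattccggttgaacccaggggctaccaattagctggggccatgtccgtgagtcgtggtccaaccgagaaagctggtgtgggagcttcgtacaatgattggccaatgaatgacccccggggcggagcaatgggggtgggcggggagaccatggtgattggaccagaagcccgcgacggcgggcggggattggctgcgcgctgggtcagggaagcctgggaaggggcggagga

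After siARD1, the members listed here rose broadly in the libraries labelled Hep-3B and split in both directions in Huh-7. The rise was weaker and uneven in the wider pathway list described further below. Across its 150 genes tested in the Hep-3B libraries as labelled, 35 rises stood beside 15 falls (median 0.02). By list, 14 of 36 translocation and glycosylation genes rose and 2 fell, while of 24 export genes 2 rose and 2 fell. Of 39 members with enough counts to test, 28 rose and 0 fell in the libraries labelled Hep-3B, or 71.8%, where 16.8% of all 15762 tested genes rose and 15.3% fell (edgeR quasi-likelihood test, Benjamini-Hochberg adjusted p under 0.05, 32.2% called in all). In Huh-7, 7 rose and 10 fell, or 43.6%, beside 40.1% of all 15919 tested genes (21.2% higher, 18.9% lower), so that the share called there was near that of all genes. The median log2 fold change of the tested members was 0.33 in the libraries labelled Hep-3B and 0.05 in Huh-7, where all tested genes had medians of -0.01 in both. With upper-quartile scaling, the Huh-7 split was 3 higher and 13 lower. The summed level of the members was 7166, 7539 and 7641 CPM in the controls labelled Hep-3B and 9852, 9644 and 9653 after siARD1, so the groups did not overlap. In Huh-7 the sums were 12242, 12408 and 12596 CPM in the controls and 11748, 12098 and 12441 after siARD1, and the groups overlapped. The member left untested was DERL3, a degradation channel gene at 0 to 0.0971 CPM in every library.

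**Figure D1:**
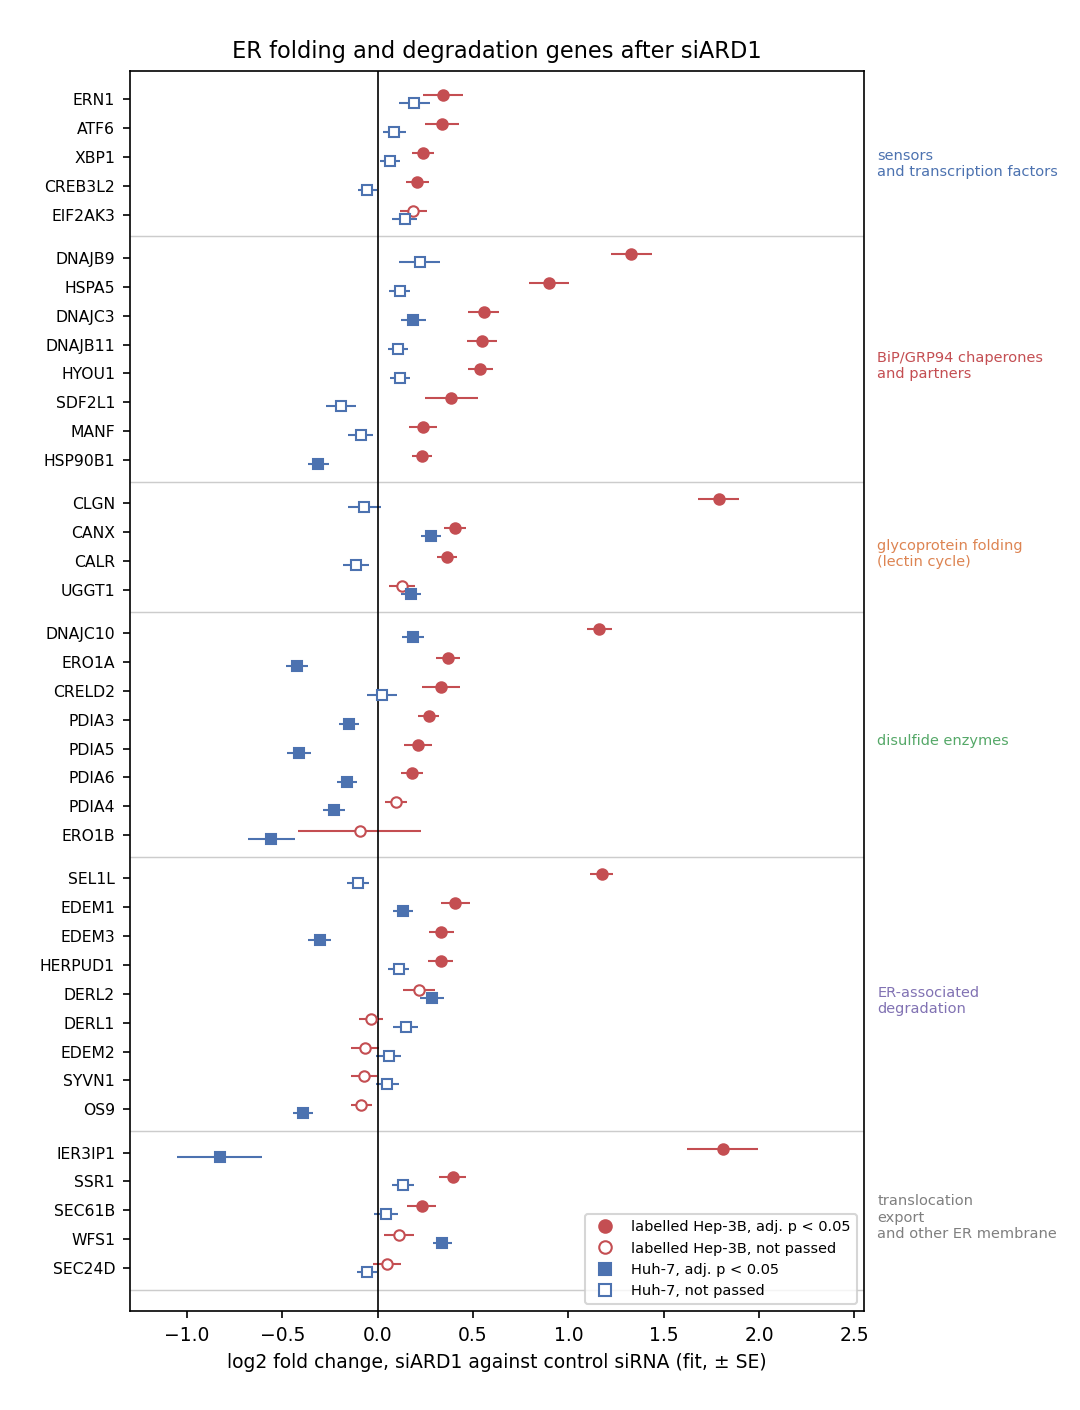
Log2 fold changes (siARD1 against control, x axis, ± SE) of the 39 tested members by role, red circles for libraries labelled Hep-3B and blue squares for Huh-7, filled where the adjusted p was under 0.05. The filled red circles, 28 in all, lie right of 0, while the filled blue squares lie on both sides, 7 right and 10 left.

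The sizes also differed. At least 2-fold rises were found for 5 members in the libraries labelled Hep-3B (IER3IP1, CLGN, DNAJB9, SEL1L and DNAJC10), beside 1.71% of all tested genes. Among the alternatives, the log2 fold change of DNAJC10 went down to 0.73, short of 2-fold, while the others named here stayed at least 2-fold. HSPA5 was the sixth to rise at least 1.5-fold, beside 5.39% of all tested genes. In Huh-7, 0 of 39 rose at least 1.5-fold (4.23% of all tested genes did), and the highest fold was 1.27, for WFS1. The values of control and siARD1 libraries did not overlap for 32 members in the first line (31 higher, 1 lower), where 45% of all tested genes did not overlap (22.7% higher, 22.3% lower). In Huh-7 they did not for 23 members (13 higher, 10 lower), beside 50% of all tested genes (26.1% higher, 23.9% lower).

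The counts by role here and below stand beside the shares of all tested genes. These were 16.8% higher and 15.3% lower in the libraries labelled Hep-3B, and 21.2% higher and 18.9% lower in Huh-7. Of the sensors and transcription factors, 4 of 5 rose and 0 fell in the libraries labelled Hep-3B (median 0.24), and in Huh-7 0 of 5 passed the test (median 0.09), with 0.19 for ERN1 the highest there. ATF6, the sensor that is cut in the Golgi to free a transcription factor, was at 42.0, 48.2 and 53.9 CPM in the controls labelled Hep-3B and at 61.0, 56.1 and 65.1 after siARD1. Every siARD1 library was above every control, and the log2 fold change was 0.34 (SE 0.09, edgeR adjusted p = 0.0082). It did not pass once a trend on GC content and gene length was taken out (0.20, edgeR adjusted p = 0.0861). In Huh-7, ATF6 was at 68.0, 64.3 and 64.8 CPM in the controls and at 71.6, 72.1 and 65.7 after siARD1, with overlapping groups (0.09, edgeR adjusted p = 0.259).

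ERN1, which encodes the kinase and RNase IRE1, was at 72.5, 93.7 and 99.2 CPM in the controls labelled Hep-3B and at 121, 101 and 114 after siARD1 (0.34, SE 0.11, edgeR adjusted p = 0.0291). The highest control was just under the lowest siARD1 library, and the call was lost without siARD1 library 1 (0.29, adjusted p = 0.0998) or siARD1 library 3 (0.33, adjusted p = 0.108), both by edgeR. In Huh-7, ERN1 was lower in level, at 27.9, 26.4 and 27.3 CPM in the controls and 33.6, 31.2 and 28.4 after siARD1. These groups did not overlap but the difference did not pass (0.19, edgeR adjusted p = 0.0592), and did so without siARD1 library 3 (0.26, edgeR adjusted p = 0.0167). EIF2AK3, which encodes the translation-slowing kinase PERK, was at 62.7, 55.3 and 56.5 CPM in the controls labelled Hep-3B and at 68.3, 63.8 and 66.9 after siARD1. Its groups did not overlap either, but its change of 0.19 (SE 0.07) missed the threshold (edgeR adjusted p = 0.0536). It passed without control library 1 (0.25, adjusted p = 0.0111) and without siARD1 library 2 (0.22, adjusted p = 0.0486), and just passed with RLE factors (adjusted p = 0.0492), with the 1 CPM filter (0.0494) and with both lines in one fit (0.0368), all by edgeR. Huh-7 had 41.7, 40.6 and 42.0 CPM and then 44.5, 47.4 and 45.4, again apart and again short of the threshold (0.14, edgeR adjusted p = 0.0903).

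XBP1 (ENSG00000100219, chr22:28794555-28800597), the transcription factor whose mRNA is spliced by IRE1, was at 166, 175 and 177 CPM in the controls labelled Hep-3B and at 205, 204 and 202 after siARD1, a narrow rise with no overlap (0.24, SE 0.06, edgeR adjusted p = 0.00431). Gene counts do not show its splicing. In Huh-7 its level was several times higher and its groups overlapped, with 701, 754 and 732 CPM in the controls and 788, 745 and 755 after siARD1 (0.06, edgeR adjusted p = 0.353). CREB3L2, a related membrane-bound transcription factor, was at 155, 147 and 148 CPM in the controls labelled Hep-3B and at 162, 183 and 174 after siARD1 (0.21, SE 0.06, edgeR adjusted p = 0.0168). That call was lost without control library 2 (0.19, adjusted p = 0.0719), control library 3 (0.20, adjusted p = 0.0514) or siARD1 library 2 (0.17, adjusted p = 0.0616), all by edgeR. In Huh-7 CREB3L2 was at 359.6, 368 and 378 CPM and then at 363, 342 and 361, with overlap (-0.05, edgeR adjusted p = 0.435).

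All 8 chaperones of the BiP and GRP94 type rose in the libraries labelled Hep-3B (median 0.54), whereas in Huh-7 1 rose and 1 fell (median 0.11). For all 8, the signed change in the first line was higher than that in Huh-7 by the test of the difference. DNAJC3 did not pass that test once the GC and length trend was taken out (0.20, edgeR adjusted p = 0.117). HSPA5 (ENSG00000044574, chr9:125234853-125241330), which encodes BiP, the main ER chaperone and the partner that holds the sensors inactive, was at 558, 749 and 759 CPM in the controls labelled Hep-3B and at 1292, 1236 and 1325 after siARD1. Every siARD1 library was far above every control, and the log2 fold change was 0.90 (SE 0.10, edgeR adjusted p = 0.000131). Control library 1 was the lowest, and without it the change was 0.77. In Huh-7, where CPM were scaled separately, HSPA5 was at 1539, 1549 and 1609 CPM in the controls, and at 1610.0, 1735 and 1748 after siARD1. The groups were just apart there, and the change of 0.12 (SE 0.05) did not pass (edgeR adjusted p = 0.0943).

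HSP90B1 (ENSG00000166598, chr12:103930107-103953645), which encodes the ER HSP90 chaperone GRP94, moved in opposite directions. The libraries labelled Hep-3B had 1441, 1448 and 1467 CPM in the controls and 1781, 1662 and 1677 after siARD1 (0.23, SE 0.05, edgeR adjusted p = 0.00296). The Huh-7 libraries had 1833, 1782 and 1812 CPM in the controls and 1398, 1466 and 1514 after siARD1 (-0.31, SE 0.05, edgeR adjusted p = 9.11e-05). Neither line showed an overlap. The rise did not pass once the GC and length trend was taken out (0.13, edgeR adjusted p = 0.0701). HSP90B1 has processed pseudogenes, and how the counting treated reads shared with them was not given in the sources used here.

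DNAJB9 (ENSG00000128590, chr7:108569568-108574850) encodes ERdj4, a BiP co-chaperone that hands misfolded proteins to degradation. It was at 21.2, 18.4 and 17.9 CPM in the controls labelled Hep-3B and at 46.4, 55.9 and 42.5 after siARD1 (1.33, SE 0.11, edgeR adjusted p = 5.82e-07), with a wide gap between the groups. In Huh-7 it was at 56.0, 63.8 and 63.0 CPM and then at 73.0, 81.8 and 58.3, where siARD1 library 3 fell among the controls (0.22, edgeR adjusted p = 0.135). Without that library the change was 0.35 (edgeR adjusted p = 0.00032). DNAJB9 shares exon sequence with THAP5 and PNPLA8 on the opposite strand, and the strand setting of the counting was not given in the sources used here. HYOU1, a large HSP70-like chaperone that exchanges the nucleotide of BiP, was at 234, 269 and 265 CPM in the controls labelled Hep-3B and at 383, 377 and 357 after siARD1, without overlap (0.54, SE 0.06, edgeR adjusted p = 1.51e-05). In Huh-7 its change was 0.12 (edgeR adjusted p = 0.0739).

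The other 4 chaperone partners rose by 0.24 to 0.56 on the log2 scale in the libraries labelled Hep-3B. DNAJC3 (the co-chaperone p58IPK) rose by 0.56 and DNAJB11 (the co-chaperone ERdj3) by 0.55. SDF2L1, a cofactor of DNAJB11, rose by 0.39 (edgeR adjusted p = 0.0428). MANF, a secreted and BiP-binding factor, rose by 0.24 (edgeR adjusted p = 0.021). The SDF2L1 call was lost without any 1 of 5 libraries, with adjusted p of 0.161, 0.123, 0.0824, 0.128 and 0.0602 without control libraries 2 and 3 and siARD1 libraries 1, 2 and 3, and with upper-quartile scaling (0.0639), all by edgeR, and with DESeq2 (0.0532). The MANF call was lost without control library 2 (0.0685), control library 3 (0.0595) or siARD1 library 1 (0.107), all by edgeR. In Huh-7 DNAJC3 also rose (0.19, edgeR adjusted p = 0.0251). That call was lost without control library 2 (adjusted p = 0.0851), control library 3 (0.0587), siARD1 library 1 (0.0710) or siARD1 library 2 (0.115) and with upper-quartile scaling (0.136), all by edgeR. DNAJB11 (0.11), MANF (-0.09) and SDF2L1 (-0.19) did not pass in Huh-7, although DNAJB11 did without siARD1 library 3 (0.14, edgeR adjusted p = 0.0387) and SDF2L1 without control library 1 (-0.26, edgeR adjusted p = 0.0164).

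**Figure D2:**
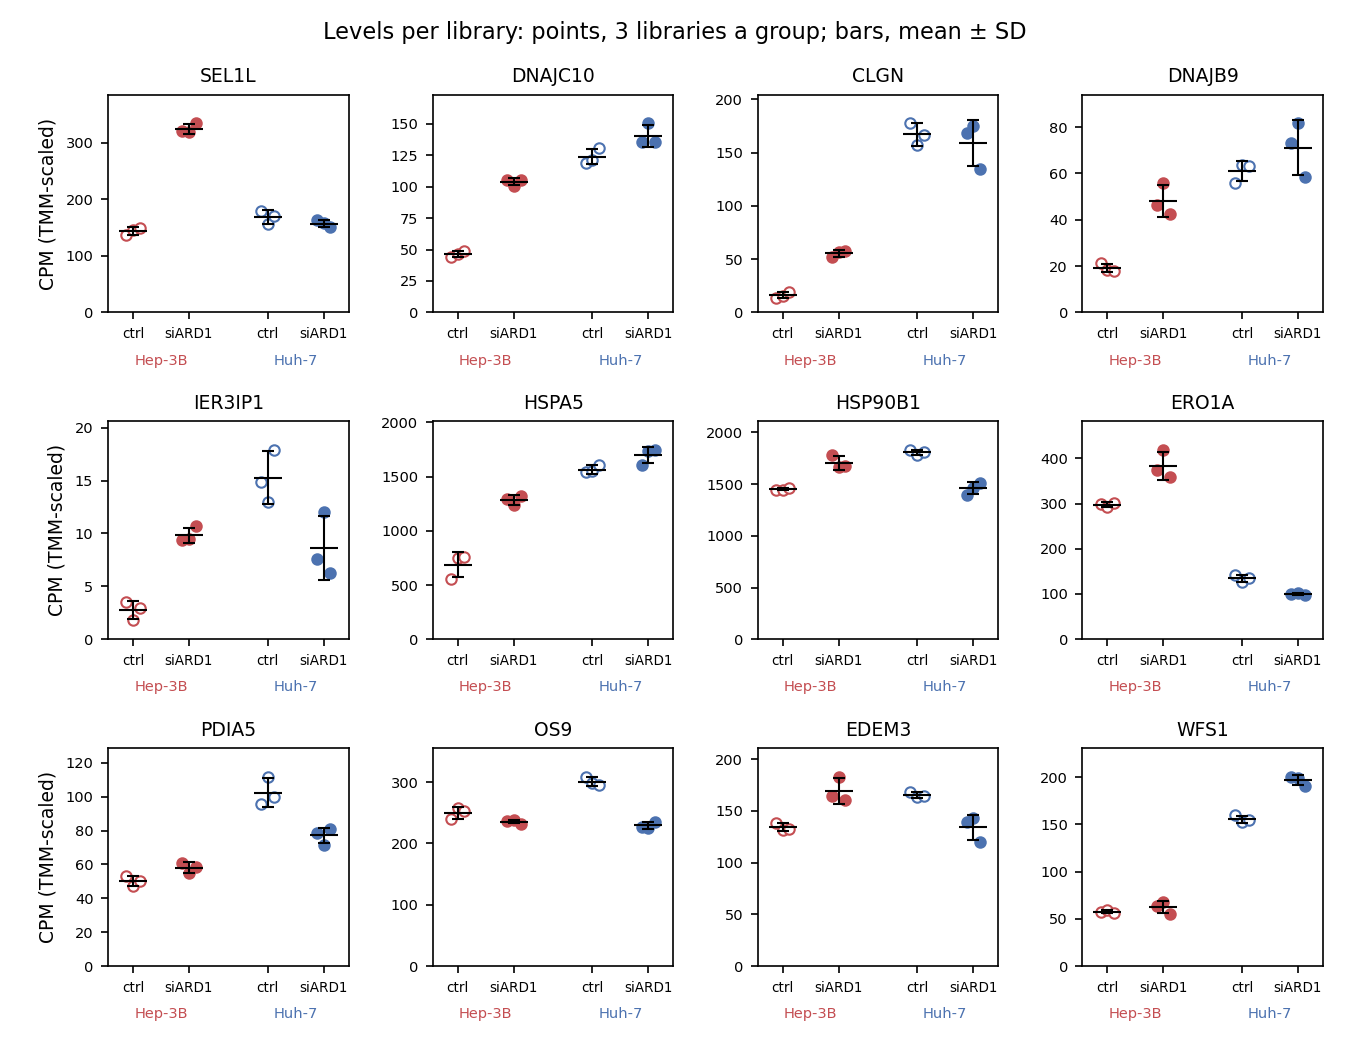
Levels of 12 members in each library (y axis, CPM from 0), open points for controls and filled points for siARD1, with the mean and SD of 3 libraries as black bars. SEL1L, DNAJC10, CLGN and DNAJB9 stand apart from their controls in the libraries labelled Hep-3B, and ERO1A, HSP90B1, PDIA5, EDEM3 and IER3IP1 move up there and down in Huh-7.

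In the lectin cycle, which folds proteins carrying N-linked sugars, 3 of 4 members rose in the libraries labelled Hep-3B (median 0.38) and 2 of 4 in Huh-7 (median 0.05), and 0 fell in either. CANX, the membrane lectin calnexin, was at 669.6, 720.0 and 756 CPM in the controls labelled Hep-3B and at 954, 922 and 966 after siARD1 (0.41, SE 0.06, edgeR adjusted p = 7.67e-05). In Huh-7 it was at 953, 935 and 996 CPM in the controls and at 1163, 1190.1 and 1149 after siARD1 (0.28, SE 0.05, edgeR adjusted p = 0.000211). CANX thus rose without overlap in both lines, and the difference between the lines did not pass (0.14, SE 0.08, edgeR adjusted p = 0.189). CALR, the soluble lectin calreticulin, was at 730.2, 749 and 755 CPM in the controls labelled Hep-3B and at 980.3, 957 and 938 after siARD1, also without overlap (0.36, SE 0.05, edgeR adjusted p = 8.34e-05). In Huh-7 CALR was at 1792, 1920.4 and 1875 CPM and then at 1559.9, 1655 and 1949. Its siARD1 library 3 lay above all controls and the other two below them (-0.11, edgeR adjusted p = 0.2), and without that library CALR was lower (-0.21, edgeR adjusted p = 0.00281).

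CLGN (ENSG00000153132, chr4:140388455-140427968), which encodes calmegin, a calnexin relative best known from testis, was at 13.4, 15.8 and 18.9 CPM in the controls labelled Hep-3B and at 52.0, 56.7 and 57.2 after siARD1 (1.79, SE 0.11, edgeR adjusted p = 2.73e-08). The lowest siARD1 library was well above the highest control. In Huh-7 the gene was already at 178, 157 and 166 CPM in the controls and was at 169, 175 and 134 after siARD1, with overlap (-0.07, edgeR adjusted p = 0.573, and 0.04 without siARD1 library 3). UGGT1, the glucosyltransferase that returns unfolded glycoproteins to the lectins, had a change of 0.13 in the libraries labelled Hep-3B (edgeR adjusted p = 0.169) and rose by 0.17 in Huh-7 (edgeR adjusted p = 0.00961). The Huh-7 call was lost with upper-quartile scaling (0.11, adjusted p = 0.0837) and with both lines in one fit (0.16, adjusted p = 0.0505), both by edgeR.

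The disulfide enzymes moved apart between the lines. Of 8, 6 rose and 0 fell in the libraries labelled Hep-3B (median 0.24), while in Huh-7 1 rose and 6 fell (median -0.19). The difference between the lines passed for 6 of 8, all with the higher change in the libraries labelled Hep-3B. ERO1A (ENSG00000197930, chr14:52639916-52695900), the oxidase that recharges protein disulfide isomerases, was at 298, 292 and 302 CPM in the controls labelled Hep-3B and at 373, 419 and 359.7 after siARD1 (0.37, SE 0.06, edgeR adjusted p = 0.000371). In Huh-7 it was at 142, 126 and 135 CPM in the controls and at 99.8, 102 and 98.3 after siARD1 (-0.42, SE 0.06, edgeR adjusted p = 3.12e-06). The groups were apart in both lines and in opposite order. Its paralog ERO1B had few reads in the libraries labelled Hep-3B, 0.922 to 1.83 CPM, with no call (-0.09, SE 0.32), and fell by 0.56 in Huh-7 (SE 0.12, edgeR adjusted p = 0.00113).

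PDIA5 (ENSG00000065485, chr3:123067062-123225227), a protein disulfide isomerase that is known to act on ATF6, was at 52.8, 47.1 and 50.1 CPM in the controls labelled Hep-3B and at 61.0, 54.7 and 58.3 after siARD1. The groups were close but apart (0.21, SE 0.07, edgeR adjusted p = 0.0369). The call was lost without control library 2 (adjusted p = 0.151), control library 3 (0.0782) or siARD1 library 1 (0.167) or 3 (0.0899), and with upper-quartile scaling (0.0702), all by edgeR. In Huh-7 PDIA5 was at 95.5, 112 and 99.9 CPM and then at 78.8, 71.7 and 80.6, clearly lower (-0.41, SE 0.06, edgeR adjusted p = 2.64e-05). Its exons overlap those of SEC22A on the same strand by 490 bases, and how the counting treated them was not given in the sources used here.

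PDIA3 (ERp57, the isomerase that works with the lectins) rose by 0.27 in the libraries labelled Hep-3B (edgeR adjusted p = 0.00144) and fell by 0.15 in Huh-7 (edgeR adjusted p = 0.0273). PDIA6 rose by 0.18 (edgeR adjusted p = 0.0235) and fell by 0.16 (edgeR adjusted p = 0.0219) in the same order. The PDIA6 rise was lost without control library 2 (edgeR adjusted p = 0.0669), siARD1 library 1 (0.0923) or siARD1 library 3 (0.0611), and with upper-quartile scaling (0.0550). In Huh-7 the PDIA6 fall was lost without control library 3 (edgeR adjusted p = 0.105) or siARD1 library 1 (0.115) or 2 (0.0777), and the PDIA3 fall without control library 2 (0.0872) or 3 (0.162) or siARD1 library 1 (0.0857) or 2 (0.0942). PDIA4 (ERp72) did not pass in the libraries labelled Hep-3B (0.10, edgeR adjusted p = 0.198) and fell by 0.23 in Huh-7 (edgeR adjusted p = 0.00299). It passed in the first line once the GC and length trend was taken out (0.20, edgeR adjusted p = 0.00928).

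DNAJC10 (ENSG00000077232, chr2:182716041-182794464), which encodes the disulfide reductase ERdj5, was the member of the group that rose in both lines. It was at 44.4, 46.1 and 48.8 CPM in the controls labelled Hep-3B and at 106, 101 and 105 after siARD1 (1.16, SE 0.07, edgeR adjusted p = 2.43e-08). Across the alternatives this change ran from 0.73 to 1.20 and was always called. Its values in Huh-7 were 119, 121 and 130.5 CPM and then 136, 151 and 135 (0.18, SE 0.06, edgeR adjusted p = 0.0132). The gap was wide in the first line and narrow in Huh-7, where the call was lost without control library 1 (edgeR adjusted p = 0.0506), control library 2 (0.0519) or siARD1 library 2 (0.0873) and with upper-quartile scaling (0.0975). CRELD2, a secreted protein known to be induced by ER stress, rose by 0.33 in the libraries labelled Hep-3B (edgeR adjusted p = 0.0177), lost without control library 2 (0.0759) or siARD1 library 1 (0.0985), and had a change of 0.02 in Huh-7 (-0.08 without siARD1 library 3).

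In ER-associated degradation, 4 of 9 tested members rose and 0 fell in the libraries labelled Hep-3B (median 0.22), beside 16.8% and 15.3% of all tested genes. In Huh-7, 2 rose and 2 fell (median 0.06), beside 21.2% and 18.9%, so that the share called there was near that of all genes. SEL1L (ENSG00000071537, chr14:81471549-81533861), the adaptor that holds the HRD1 ubiquitin ligase complex together, was at 136, 146 and 149.8 CPM in the controls labelled Hep-3B and at 319.8, 319.5 and 335 after siARD1 (1.18, SE 0.06, edgeR adjusted p = 1.05e-08). Both groups were tight and far apart. In Huh-7 it was at 179.5, 156 and 170.1 CPM and then at 163, 158 and 150.02, with overlap (-0.10, edgeR adjusted p = 0.168), and passed as lower with upper-quartile scaling (-0.17, edgeR adjusted p = 0.025). SYVN1, the HRD1 ligase that SEL1L serves, did not pass in either line (-0.07 and 0.05).

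EDEM3 (ENSG00000116406, chr1:184690231-184754913), a mannosidase that marks glycoproteins for disposal, was at 139, 132 and 132 CPM in the controls labelled Hep-3B and at 164, 183 and 160.4 after siARD1 (0.33, SE 0.06, edgeR adjusted p = 0.000916). Its values in Huh-7 were 169, 164 and 164 CPM and then 139, 143 and 119.8 (-0.30, SE 0.06, edgeR adjusted p = 0.000343). The groups were apart in both lines and in opposite order, but the rise was not called once the GC and length trend was taken out (0.10, edgeR adjusted p = 0.287). Its relative EDEM1 rose in both lines, by 0.41 (edgeR adjusted p = 0.000852) and by 0.13 (edgeR adjusted p = 0.0455). The Huh-7 call for EDEM1 was lost without any 1 of 4 libraries (edgeR adjusted p = 0.101, 0.116 and 0.0812 without control libraries 1, 2 and 3, 0.160 without siARD1 library 1), and in 13 of 16 alternatives in all. EDEM2 did not pass in either line (-0.07 and 0.06).

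OS9 (ENSG00000135506, chr12:57693955-57721557), a lectin that brings glycoproteins to the HRD1 complex, fell in Huh-7. It was at 309, 299 and 295 CPM in the controls and at 227, 226 and 235 after siARD1, far apart (-0.39, SE 0.05, edgeR adjusted p = 2.39e-06). Its values in the libraries labelled Hep-3B were 239.7, 258 and 253 CPM and then 237, 238 and 232 (-0.08, edgeR adjusted p = 0.275, and 0.03 with the GC and length trend taken out). The difference between the lines was 0.32 (edgeR adjusted p = 0.00159). OS9 has antisense gene models over its exons. HERPUD1, a stress-induced membrane protein of the same complex, rose by 0.33 in the libraries labelled Hep-3B (edgeR adjusted p = 0.00108) and had a change of 0.11 in Huh-7. DERL2, a channel subunit for the exit of proteins from the ER, rose in Huh-7, from 54.8, 61.0 and 60.0 CPM to 70.8, 69.2 and 74.6 (0.29, SE 0.06, edgeR adjusted p = 0.000869). In the libraries labelled Hep-3B it was at 25.5, 23.3 and 25.7 CPM and then at 28.6, 30.1 and 28.0, apart but not past the threshold (0.22, edgeR adjusted p = 0.0621). DERL1, a related channel subunit, did not pass in either line (-0.03 and 0.15).

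Among the genes of translocation, export and other ER membrane functions, 3 of 5 rose in the libraries labelled Hep-3B (median 0.23), and 1 rose and 1 fell in Huh-7 (median 0.04). IER3IP1, a small membrane protein of ER to Golgi traffic, had the largest log2 changes of any member but few reads. It was at 3.52, 1.86 and 2.91 CPM in the controls labelled Hep-3B and at 9.37, 9.46 and 10.7 after siARD1 (1.81, SE 0.19, edgeR adjusted p = 4.16e-06). In Huh-7 it was at 14.9, 13.0 and 17.9 CPM and then at 7.59, 11.99 and 6.23 (-0.83, SE 0.22, edgeR adjusted p = 0.0167). The groups were apart in both lines, but the Huh-7 call was lost without control library 1 (adjusted p = 0.0691) or siARD1 library 1 (0.0631), both by edgeR. The gene (ENSG00000134049, chr18:47152834-47176374) shares 465 bases of exon with AC012254.2 on the same strand, a gene model not among the rows used here.

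SSR1, a subunit of the translocon-associated complex, rose by 0.39 in the libraries labelled Hep-3B (edgeR adjusted p = 0.000586) and had a change of 0.13 in Huh-7, which passed without siARD1 library 1 (0.17, adjusted p = 0.0412) or siARD1 library 3 (0.16, adjusted p = 0.0352). SEC61B, a subunit of the translocation channel, rose by 0.23 (edgeR adjusted p = 0.0294) and had a change of 0.04 in Huh-7. The SEC61B rise was lost without control library 2 (0.0825) or 3 (0.128) or siARD1 library 2 (0.0896) or 3 (0.0669), and with upper-quartile scaling (0.0632), all edgeR adjusted p. WFS1 (ENSG00000109501, chr4:6269849-6303265), the ER membrane protein wolframin, rose in Huh-7 from 159, 152 and 154 CPM to 201, 199 and 190.3, with no overlap (0.34, SE 0.05, edgeR adjusted p = 1.53e-05). In the libraries labelled Hep-3B WFS1 was at 57.4, 59.3 and 55.8 CPM and then at 63.3, 67.9 and 55.1, with overlap (0.11, edgeR adjusted p = 0.305), and it passed there once the GC and length trend was taken out (0.23, edgeR adjusted p = 0.0199). SEC24D, a coat subunit of ER export vesicles, did not pass in either line (0.05 and -0.05).

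Tested directly, the log2 fold change after siARD1 was higher in the libraries labelled Hep-3B than in Huh-7 for 24 of 39 members and lower for 0. Of 17122 genes tested for this difference, 16.2% were higher there and 31.4% differed in either direction (edgeR). The difference is signed, so a higher change is not always larger in size, as for OS9 (-0.08 in the libraries labelled Hep-3B, -0.39 in Huh-7). By role the 24 were 8 of 8 chaperones, 6 of 8 disulfide enzymes, 5 of 9 degradation genes, 2 of 4 lectin cycle genes, 2 of 5 genes of translocation and export, and 1 of 5 sensors and transcription factors. SEL1L differed by 1.29 on the log2 scale (SE 0.09, edgeR adjusted p = 7.72e-12). Next by p were DNAJC10 (0.995), ERO1A (0.81), CLGN (1.88), HSP90B1 (0.56) and EDEM3 (0.65). The DNAJC10 difference passed in all 21 alternatives but went down to 0.48 among them. The difference for IER3IP1 was 2.65 but less certain (SE 0.32). Among the 15 members whose difference did not pass were CRELD2 (0.32, edgeR adjusted p = 0.0569), XBP1 (0.19, edgeR adjusted p = 0.0636) and ATF6 (0.27, edgeR adjusted p = 0.0650). All were near the threshold, and of 21 alternatives CRELD2 passed in 6. XBP1 passed in 5, such as with the GC and length trend taken out (0.29, edgeR adjusted p = 0.00335) or without the Huh-7 control library 1 (0.23, edgeR adjusted p = 0.0397). ATF6 passed in 3, among them without control library 3 (0.36, edgeR adjusted p = 0.0127) or siARD1 library 2 (0.32, edgeR adjusted p = 0.0287) of those labelled Hep-3B.

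**Figure D3:**
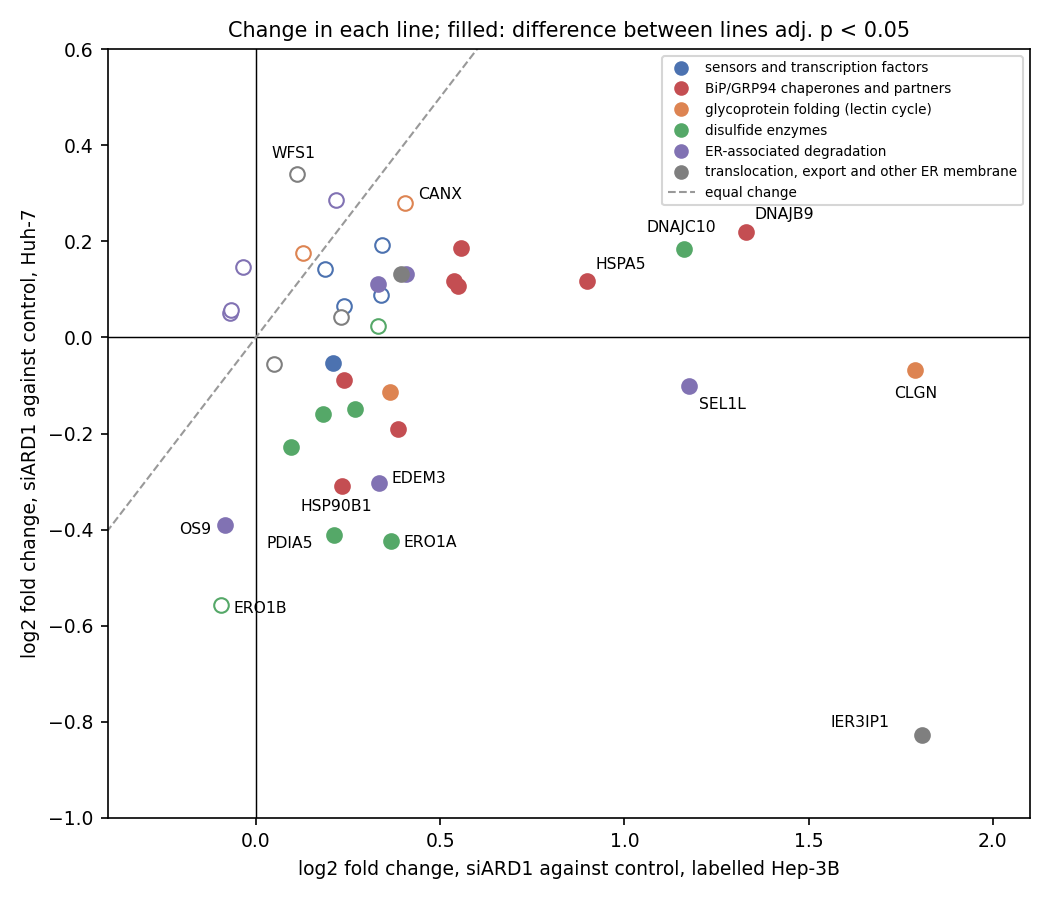
Log2 fold change in Huh-7 (y axis) against that in the libraries labelled Hep-3B (x axis) for 39 members, coloured by role and filled where the difference between the lines passed. The 24 filled points lie below the dashed line of equal change, with IER3IP1, CLGN, DNAJB9, SEL1L and DNAJC10 farthest right.

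Gene by gene, 7 members rose in the libraries labelled Hep-3B and fell in Huh-7 (HSP90B1, PDIA3, PDIA5, PDIA6, ERO1A, EDEM3 and IER3IP1), or 17.9%, beside 3.67% of the 13800 genes tested in both lines. Of these 7, ERO1A alone kept both calls in all 16 alternatives per line. Another 4 rose in both (DNAJC3, CANX, DNAJC10 and EDEM1), or 10.3%, beside 4.55%, and of these 4 CANX alone kept both calls. The count was 0 for members lower in the first line and higher in Huh-7 (4.08% of all) and 0 for members lower in both (3.69%). Spearman's rho between the log2 fold changes of the 2 lines was 0.167 over the 39 members, which share their libraries and are not independent.

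In CPM scaled within each line, the members' levels in the controls differed between the lines before any change. Per length of exon, the highest in the controls labelled Hep-3B were HSP90B1 at 309 CPM per kb, CALR at 274, HSPA5 at 176, PDIA3 at 131 and CANX at 115. In the Huh-7 controls they were CALR at 686, HSPA5 at 401, HSP90B1 at 385, XBP1 at 241 and PDIA4 at 206 CPM per kb. CLGN was at 5.13 CPM per kb in the controls labelled Hep-3B and at 53.4 in those of Huh-7, and after siARD1 it reached 17.7 in the first line. SEL1L, by contrast, was at 15.05 and 17.6 CPM per kb in the controls of the 2 lines and reached 34.0 in the libraries labelled Hep-3B. Levels between the lines were not tested, and the lines did not share a normalization.

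**Figure D4:**
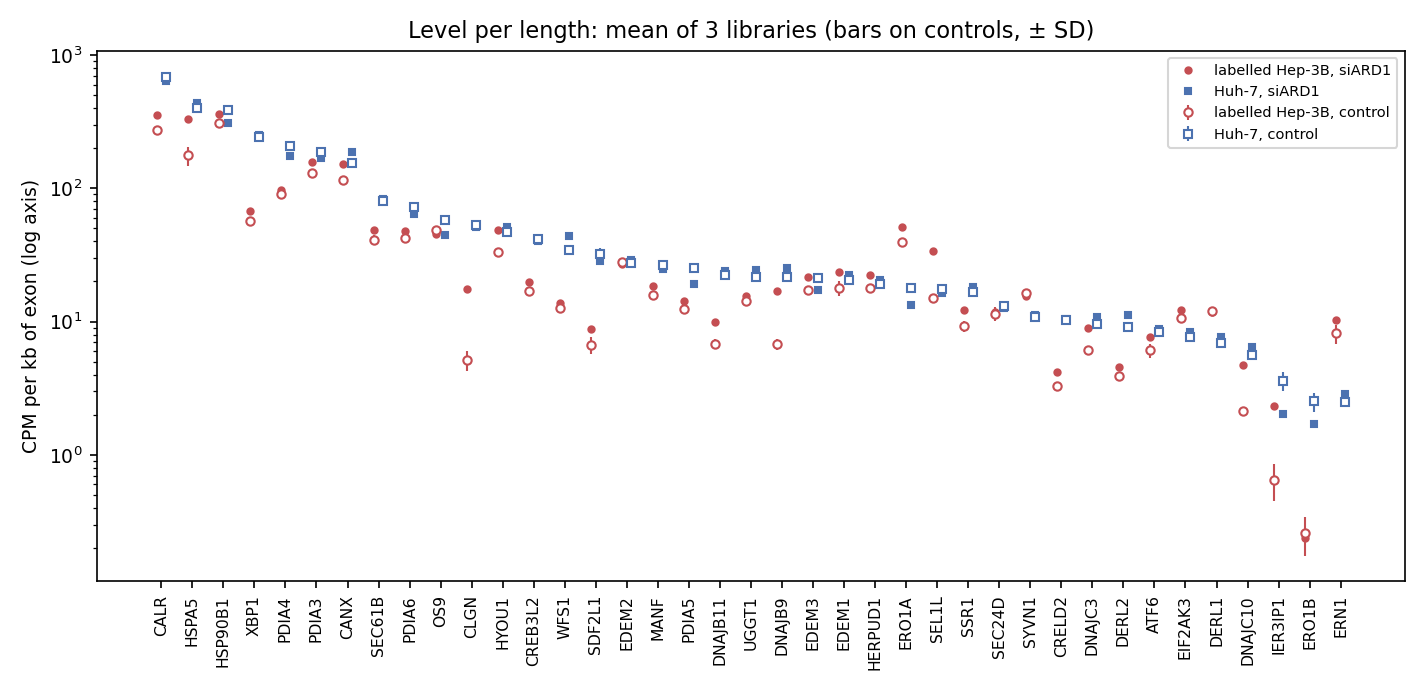
Mean level per kb of exon (log y axis) of 39 members, ordered by the Huh-7 controls, with controls open (± SD, 3 libraries) and siARD1 filled. CLGN, DNAJB9 and IER3IP1 are far lower in the controls labelled Hep-3B than in Huh-7 and move toward it after siARD1, while SEL1L starts at a like level and moves past it. ERO1B (0.257 beside 2.52 CPM per kb) and SDF2L1 (6.70 beside 32.4) are also far lower there and stay so, at 0.239 and 8.80 after siARD1.

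Set beside the sequences above, the rises in the libraries labelled Hep-3B were found in members with and without a motif. Of 12 members with any match, 11 rose (median 0.35), and of 23 with a window but no match, 15 rose (median 0.24). Of all tested genes, 16.8% rose in these libraries. The 8 with ERSE had a median of 0.28, led by HSPA5, and the 4 with ERSE-II or UPRE (HERPUD1, SDF2L1, HYOU1 and DNAJC10) a median of 0.46. CLGN, DNAJB9 and SEL1L, with larger changes than HSPA5, held no exact match in their windows. In Huh-7, 1 of the 8 ERSE members rose (CANX) and 3 fell (HSP90B1, PDIA6 and ERO1B), with a median of -0.05. The 23 without a match split into 5 higher and 5 lower, beside 21.2% and 18.9% of all tested genes. No window was at hand for DERL1, IER3IP1, PDIA3, DERL3 and SEC24D.

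**Figure D5:**
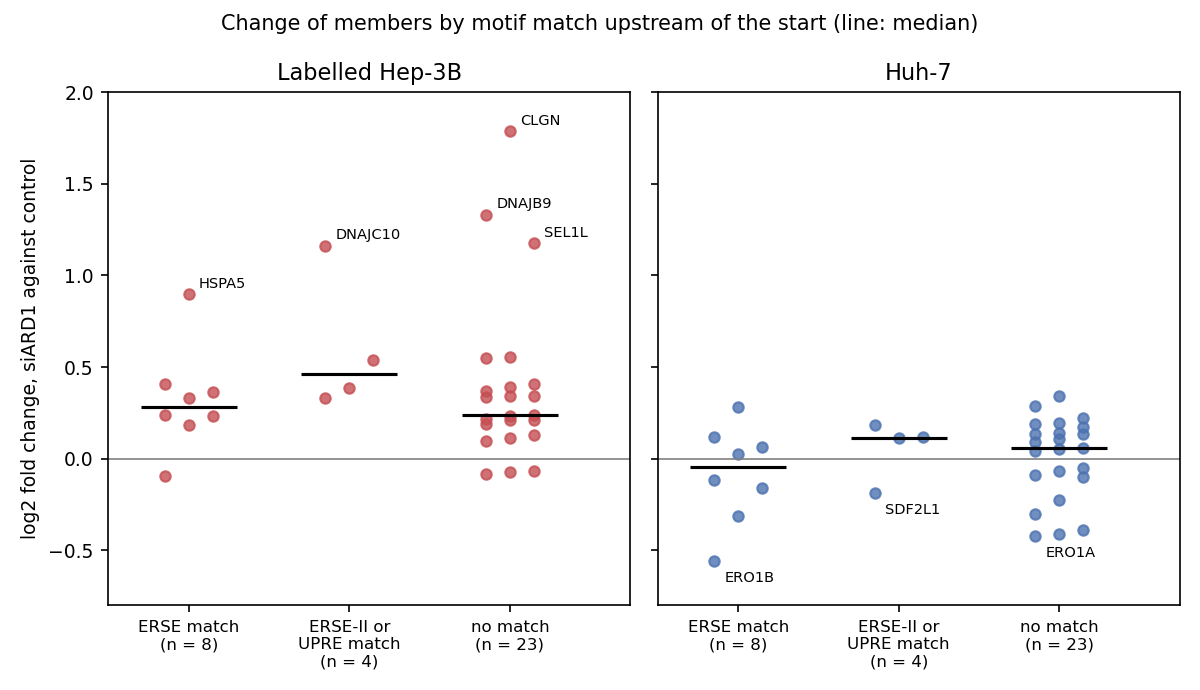
Log2 fold change (y axis) of each member by the motif found in the 250 bases upstream, for the libraries labelled Hep-3B (left) and Huh-7 (right), with the median as a black line. On the left CLGN, DNAJB9 and SEL1L, without a match, stand above HSPA5, and on the right all classes scatter about 0.

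Another 152 genes of the same pathway, which are no members, held both rises and falls in each line. Of 150 tested in the Hep-3B libraries as labelled, 35 rose and 15 fell (median 0.02), beside 16.8% and 15.3% of all tested genes, and with upper-quartile scaling 31 rose and 21 fell. In Huh-7 44 of 148 rose and 24 fell (median 0.00), beside 21.2% and 18.9% of all tested genes, and with upper-quartile scaling 33 rose and 42 fell. By list, the further translocation and glycosylation genes rose in 14 of 36 in the libraries labelled Hep-3B, SEC63 (0.58) and MAGT1 (0.55) among them, and fell in 2. In the same libraries the further folding and disulfide genes rose in 8 of 38 and fell in 3, TMX3 (1.01) and ERP44 (0.67) leading the rises. The further degradation genes there split into 7 rises, RNF139 (0.70) and MAN1A1 (0.42) among them, and 6 falls. Of 24 export genes 2 rose in the libraries labelled Hep-3B, LMAN1 (0.30) and MCFD2 (0.29), and 2 fell.

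In Huh-7 the further degradation genes rose in 15 of 34 and fell in 6, with FOXRED2 at 0.80 and MAN1A2 at -0.42. The folding and disulfide genes rose in 7 of 36 and fell in 9, and QSOX1, another disulfide oxidase, had the smallest p (-0.71), followed by FKBP10 (-0.31). Of 35 translocation genes 11 rose and 2 fell, with SRPRB at 0.64 and SRP9 at -0.47, and of 25 export genes 3 rose and 4 fell, with SEC23B at 0.41 and LMAN1 at -0.35. The cargo receptor LMAN1 thus rose in one line and fell in the other (difference 0.67, edgeR adjusted p = 3.46e-07).

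Of 18 other stress transducers and outputs tested in each line, 4 rose and 2 fell in the libraries labelled Hep-3B, beside 16.8% and 15.3% of all tested genes. In Huh-7, 8 rose and 3 fell, beside 21.2% and 18.9%. The difference between the lines passed for 3 with the higher change in the libraries labelled Hep-3B, beside 16.2% of all genes tested for it, and for 9 with the higher change in Huh-7, beside 15.2%. PPP1R15A, the phosphatase subunit that ends the translation block, rose in Huh-7 from 31.9, 29.9 and 32.7 CPM to 61.0, 62.0 and 56.7 (0.93, edgeR adjusted p = 9.19e-10). It did not pass in the libraries labelled Hep-3B (0.32, edgeR adjusted p = 0.141), and its difference between the lines was -0.59 (edgeR adjusted p = 0.0216). TXNIP, a thioredoxin-binding protein, rose by 0.39 in the libraries labelled Hep-3B and fell by 1.71 in Huh-7. BBC3, a cell death gene, fell by 0.48 in the libraries labelled Hep-3B, where CREB3L4 also fell (-0.49). Besides TXNIP, those that rose there were MBTPS2 (0.42), CHAC1 (0.37, edgeR adjusted p = 0.0131) and PPP1R15B (0.35, edgeR adjusted p = 0.000903). The change of CHAC1 was nevertheless higher in Huh-7, with a difference between the lines of -1.05 (edgeR adjusted p = 0.00539). For MBTPS2 (difference 0.63) and PPP1R15B (0.32) it was higher in the libraries labelled Hep-3B. ATF4 and DDIT3, transcription factors of the PERK arm, were picked after their values were seen. ATF4 rose by 0.48 in Huh-7 (edgeR adjusted p = 9.39e-06) and did not pass in the libraries labelled Hep-3B (-0.13, edgeR adjusted p = 0.0896), a difference of -0.59 (edgeR adjusted p = 1.62e-05). DDIT3, which encodes CHOP, rose by 0.95 in Huh-7 (edgeR adjusted p = 8.88e-08) and did not pass in the libraries labelled Hep-3B (-0.11, edgeR adjusted p = 0.39), a difference of -1.05 (edgeR adjusted p = 9.18e-07).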

How the data were processed

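Per the labels' protocols, total RNA had its rRNA removed before directional library construction. The authors' steps include cutadapt 4.6, STAR 2.7.11b and GRCh38, per the submitters' processing notes; the program that counted reads, its annotation and its strand option were not given in the sources used here. The deposited tables, 1 per line, hold raw counts per gene (25720 and 25714 genes, 22730 in both), and 0 columns were left unmapped. Each line was fitted in R 4.3.3 with edgeR 4.0.16 (filterByExpr with minimum count 10 and minimum total 15, TMM factors, robust quasi-likelihood F-test of siARD1 against control, Benjamini-Hochberg threshold 0.05 over all tested genes), and the difference between the lines as the interaction in one fit of the 4 groups. An approximate SE was taken as |log2 fold change| / sqrt(F). CPM are TMM-scaled within each line. Steps were tested on simulated data.

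The members, role lists and the further 152 pathway genes were chosen with earlier results of these data known. Values in every library are given for NAA10, the sensors and transcription factors, HSPA5, the 8 members of smallest p per line and the 6 of smallest p for the difference, and up to 2 further pathway genes per list and line are named by p; others are named for context. Other settings were DESeq2 1.42.0, voom weights in limma 3.58.1, RLE factors, upper-quartile factors, no filter, 1 CPM in 3 libraries, a threshold of 0.01, a joint fit of both lines, a replicate block, removal of a trend on GC content and length (loess span 0.3, with values for 96.5 and 96.3% of tested genes from GENCODE release 29), and each library left out. Upstream sequences are from RefSeq, GRCh38.p14. Protein features were not analysed here. Plots used matplotlib 3.10.9 (Python 3.11.15).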

Additional observations from a re-analysis of the deposited data

Results flagged for a closer look

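For 24 members the change after siARD1 differed between the lines by edgeR's test of the interaction (adjusted p under 0.05), each time with the higher signed value in the libraries labelled Hep-3B. Of these, 18 passed in all 21 alternatives. Differences are the log2 fold change in the libraries labelled Hep-3B minus that in Huh-7.

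Among chaperones they were DNAJB9 1.13, HSPA5 0.80, SDF2L1 0.59, HSP90B1 0.56, DNAJB11 0.46, HYOU1 0.44, DNAJC3 0.39 and MANF 0.34. In the lectin cycle they were CLGN 1.88 and CALR 0.49. Disulfide enzymes gave DNAJC10 0.995, ERO1A 0.81, PDIA5 0.64, PDIA3 0.44, PDIA6 0.36 and PDIA4 0.34. Degradation genes gave SEL1L 1.29, EDEM3 0.65, OS9 0.32, EDEM1 0.29 and HERPUD1 0.24. The rest were IER3IP1 2.65, SSR1 0.28 and, among the transcription factors, CREB3L2 0.28. In 7 of the 24 (HSP90B1, PDIA3, PDIA5, PDIA6, ERO1A, EDEM3 and IER3IP1) the gene rose in one line and fell in the other. Of these 7, ERO1A alone kept both of its line calls in all 16 alternatives per line.
The difference was lost without 1 library for 3 members. For EDEM1 it fell to 0.17 (edgeR adjusted p = 0.103) without the Hep-3B control library 1 and was 0.28 (0.0543) without the Huh-7 control library 3. HERPUD1 missed the threshold without the Hep-3B control library 1 (0.121) or 2 (0.127), siARD1 library 1 (0.0839) or 3 (0.0636), the Huh-7 control library 1 (0.0764) or 3 (0.0862), or siARD1 library 2 (0.105) or 3 (0.0577). SSR1 missed it without the Hep-3B control library 2 (0.150) or siARD1 library 2 (0.0621), the Huh-7 control library 3 (0.0729), or siARD1 library 1 (0.0765) or 3 (0.0580). Other settings also ended calls. HERPUD1 missed the threshold with RLE factors (edgeR adjusted p = 0.0627), with no filter (0.0739) and with DESeq2 (0.0606). With the trend on GC content and length removed, SSR1 (0.121) and DNAJC3 (0.117) missed it in edgeR. At a false discovery rate of 0.01, CREB3L2, MANF, EDEM1, HERPUD1 and SSR1 did not pass.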

How the results depend on the processing

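No called member changed direction in any alternative: 17 of 28 calls in the libraries labelled Hep-3B and 10 of 17 in Huh-7 passed in all 16 settings. The count of changed members in Huh-7 was 11 (4 higher, 7 lower) at a false discovery rate of 0.01. Leaving out 1 library gave 21 to 29 changed members in the libraries labelled Hep-3B, 13 (without control library 3) to 22 (without siARD1 library 3) in Huh-7, 21 to 25 for the difference between the lines, and 38 to 49 and 59 to 72 further pathway genes. The median log2 fold change in the libraries labelled Hep-3B was 0.296 with upper-quartile scaling, 0.303 with no filter and 0.294 with the trend on GC content and length removed, and 0.268 to 0.321 with 1 library left out. The Huh-7 median was -0.0132 with upper-quartile scaling, and 0.0256 to 0.0707 with 1 library left out. The cause of these shifts was not tested. With a replicate block, 28 members changed in the libraries labelled Hep-3B, 15 in Huh-7 (6 higher, 9 lower) and 26 in the difference, the medians were 0.332 and 0.0507, and 52 and 70 further pathway genes changed. The block ended the calls of ERN1 in the libraries labelled Hep-3B (edgeR adjusted p = 0.0592) and of EDEM1 (0.0608) and IER3IP1 (0.0590) in Huh-7, and brought past the threshold EIF2AK3 in the libraries labelled Hep-3B (0.0319) and the differences of ATF6 (0.0369) and CRELD2 (0.0267). Same-numbered libraries deviated together only weakly (r = 0.03, 0.08 and 0.08 in those labelled Hep-3B, where each correlated best with its own number, and 0.08, -0.09 and 0.01 in Huh-7, where they did not), so the numbers were not taken as pairs. Low counts limit IER3IP1, and ERO1B in the libraries labelled Hep-3B, most.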
